A study of Rattus norvegicus with 27 samples.

Results

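Smr3a, Pip, Obp2b, Lcn1, Cst5 and Dmbt1 encode secreted proteins of saliva that are not enzymes, and their mRNA expression was followed across the differentiation of rat parotid acinar cells. The 6 genes were chosen by name, with their expression across these ages already known, to set an early onset (Smr3a and Pip) beside a late onset (Lcn1, Cst5 and Dmbt1); they are 6 of the 14217 genes named by the array's annotation. Each had exactly 1 probe set of its own among the 31042 probe sets tested, and a further probe set was shared by Lcn1 and Vegp2. Because the choice used the pattern across ages, the levels and differences of the 6 genes are given as a description, with no p-value.

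Acinar cells are the exocrine cells that make most of the protein of parotid saliva, store it in zymogen granules and release it into the ducts when autonomic nerves stimulate them. Pip, the prolactin-induced protein, is a small protein of saliva, tears and seminal fluid, and Smr3a belongs to the proline-rich salivary genes first described by their response to androgen in the submandibular gland. Lcn1 and Obp2b are lipocalins, barrel-shaped carriers of small hydrophobic molecules; Cst5 is a cystatin, an inhibitor of cysteine proteases; and Dmbt1, also known as salivary agglutinin, carries scavenger receptor domains that bind bacteria.

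The animals were Sprague Dawley rats at embryonic days 18 and 20 (E18, E20), at birth (P0) and at postnatal days 2, 5, 9, 15, 20 and 25 (P2 to P25), with 3 arrays at each of the 9 ages and 27 arrays in all. No genotype or treatment separated the groups, and every sample was parotid acini taken by laser capture microdissection, with RNA amplified before hybridization. The study's methods state that samples of an age came from separate litters, and that whole heads were sectioned up to P5 but dissected glands from P9 on, so the step from P5 to P9 and the change of preparation cannot be told apart. The study grouped the ages into 4 stages by clustering these same arrays: E18, E20 and P0 form stage 1, stage 2 runs from P2 to P5, stage 3 from P9 to P15, and P20 with P25 makes stage 4.

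Values are log2 expression after Robust Multi-array Average (RMA) processing, and the array medians lay between 5.91 and 6.13. Marker levels of the captured material stand beside the results. The mean level of 8 measured acinar markers, among them the secreted products Amy1 and Bpifa2, was 6.04 to 7.21 on the E18 arrays and 10.78 to 11.36 on the P25 arrays. The mean level of 12 skeletal muscle markers ranged from 4.91 to 12.34, with its highest value on P9 replicate 3, and that of 8 epidermis and hair follicle markers from 4.54 to 10.10, with its highest value on P5 replicate 2. In such mixtures, a smaller share of one cell type and less RNA per cell cannot be told apart.

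The upstream sequences of the genes with the earliest and the latest rise are printed here because the members of each pair rose together. RefSeq promoter sequence on the GRCr8 assembly was matched for 5 of the 6 genes, Dmbt1 being the exception, and for Vegp2. The 120 bases before the annotated start are shown 5' to 3' on the gene's strand for Smr3a (chr14:20338821-20338940, minus strand), Pip (chr4:71754145-71754264, plus strand), Lcn1 (chr3:29930823-29930942, plus strand) and Vegp2 (chr3:29919163-29919282, minus strand), with the letters TATAAA in capitals where present.
Smr3a: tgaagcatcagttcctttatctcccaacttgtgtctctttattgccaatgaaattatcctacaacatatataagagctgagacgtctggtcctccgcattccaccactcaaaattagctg
Pip: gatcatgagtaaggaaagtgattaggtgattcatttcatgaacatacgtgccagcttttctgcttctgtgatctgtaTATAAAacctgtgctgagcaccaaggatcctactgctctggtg
Lcn1: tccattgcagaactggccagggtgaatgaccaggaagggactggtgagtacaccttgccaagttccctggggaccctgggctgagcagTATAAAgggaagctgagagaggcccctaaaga
Vegp2: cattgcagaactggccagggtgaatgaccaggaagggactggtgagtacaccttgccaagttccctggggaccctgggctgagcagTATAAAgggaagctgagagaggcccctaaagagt
With base -1 as the last base before the start, TATAAA lay on the gene's strand at -43 to -38 in Pip, at -32 to -27 in Lcn1 and at -34 to -29 in Vegp2, and also at -30 to -25 in Obp2b. Smr3a and Cst5 had no TATAAA on either strand within 250 bases. Over all 33469 promoters in the reference table, 12.9% held TATAAA on either strand of the 250 bases and 2.26% held it on the gene's strand within the last 50. Further motifs were searched on both strands of the same 250 bases. The letters CCACG, held by 27.2% of all promoters, were in none of the 6 upstream sequences. Neither was the palindrome CAGCTG, held by 12.0% of all promoters. The letters AGAACA were in Pip at -201 to -196, in Lcn1 at -161 to -156 and in Vegp2 at -163 to -158, the last 2 on the opposite strand, and 17.5% of all promoters held them. Shifted by 2 bases, the upstream sequences of Lcn1 and Vegp2 were identical at 247 of 248 bases.

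Smr3a and Pip were low before birth and rose sharply by P2. Every P2 array lay above every P0 array for 2 of the 6 genes, Smr3a and Pip; this held for 7.10% of all probe sets, and the choice of genes used this contrast. The midpoint of the whole rise was read from straight lines between adjacent age means. It was crossed 1.46 days after birth for Smr3a and 1.35 days after birth for Pip. A residual SD pooled over the 9 ages, 0.545 for Smr3a and 0.679 for Pip, moved the crossing by 0.174 and 0.206 days. At P0 and P2 the SD of the 3 arrays was 1.21 and 0.38 for Smr3a, and 0.37 and 1.22 for Pip.

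On the 9 arrays of stage 1, Smr3a ranged from 3.46 to 6.19 with a median of 4.45. Its values were 10.77, 11.48 and 10.90 at P2 and 9.94, 8.82 and 9.40 at P5. The highest stage 1 value came from P0 replicate 1, and still lay below every later array. From P0 to P2 the mean rose by 6.25 ± 0.43 on the log2 scale (SE of the fit, 3 arrays each), which is 76.2-fold, and all 3 P5 arrays then lay below all 3 P2 arrays, as for 6.35% of probe sets. The fall from P2 to P5 was -1.67 ± 0.43. At P9 the values were 11.89, 12.34 and 12.36, at P15 13.96, 14.13 and 14.00, at P20 14.54, 14.29 and 14.40, and at P25 14.59, 14.60 and 14.55. The ages from P5 on followed one another without overlap, and the P25 values were close to 14.63, the highest value of any probe set on any array. The whole difference from E18 to P25 was 10.44 ± 0.43.

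Pip ranged from 4.12 to 5.48 with a median of 5.03 on the stage 1 arrays. It measured 12.88, 11.48 and 10.44 at P2, then 10.35, 11.23 and 8.85 at P5. The P2 and P5 arrays overlapped, and the mean difference of -1.46 ± 0.53 between them was smaller than the range of 2.44 within P2. From P0 to P2 the mean rose by 6.59 ± 0.53 or 96.3-fold. Values were 11.75, 11.41 and 12.33 at P9, 13.40, 13.59 and 13.49 at P15, 13.89, 13.81 and 13.88 at P20, and 14.04, 14.11 and 14.05 at P25. From P15 on the ages did not overlap, the 3 arrays of an age lay within 0.19, and the whole difference from E18 was 9.20 ± 0.53.

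On each of the 9 arrays from P15 to P25, Smr3a and Pip both stood above the 99.9th percentile of all probe sets. At P2 Smr3a had reached 66.2% of its whole log2 change and Pip 73.2%, and at P15 they had reached 94.8% and 93.7%. Between P20 and P25 the means differed by 0.17 for Smr3a and 0.21 for Pip, with every P25 array above every P20 array. The SD at these ages was 0.03 to 0.13, so the standard error of the fit, which pools all ages, does not describe their spread.

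**Figure D1:**
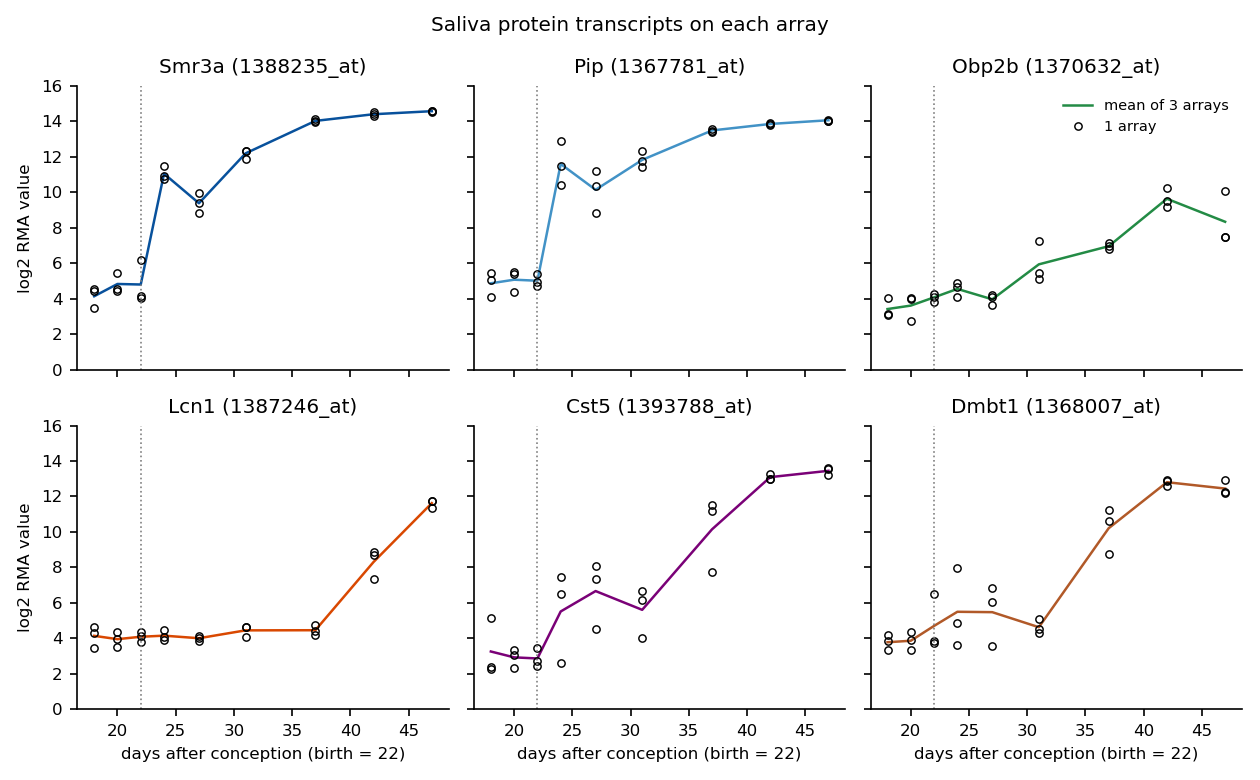
Log2 RMA value of each of the 6 genes on each array (open circles, 3 per age) and the mean of each age (line), against days after conception, with birth at day 22 as a dotted line. Smr3a and Pip climb between P0 and P2, whereas Lcn1 stays between 3.47 and 4.75 up to P15 and reaches 11.35 to 11.76 at P25.

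Lcn1 had the latest rise. Its 21 arrays from E18 to P15 ranged from 3.47 to 4.75 with a median of 4.10, and no age within this span lay wholly above or below the others. It then measured 8.86, 7.34 and 8.70 at P20 and 11.76, 11.75 and 11.35 at P25. Both steps were free of overlap and of similar size, 3.85 ± 0.35 (14.4-fold) from P15 to P20 and 3.32 ± 0.35 (9.99-fold) from P20 to P25. Lcn1 was thus 1 of 3 genes, with Smr3a and Pip, whose P25 arrays all lay above the P20 arrays, a pattern that 13.4% of probe sets showed. The midpoint of its rise fell 19.45 days after birth, with a spread of 0.557 days. That spread rests on a pooled residual SD of 0.43, whereas the 3 arrays had an SD of 0.28 at P15 and 0.84 at P20.

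The probe set shared by Lcn1 and Vegp2 followed the same course. It ranged from 4.72 to 6.62 with a median of 5.64 on the 21 arrays up to P15, then measured 9.01, 8.55 and 9.23 at P20 and 12.37, 12.52 and 12.25 at P25. Its difference from E18 to P25 was 6.84 ± 0.33, against 7.49 ± 0.35 for the probe set of Lcn1 alone. Vegp2, the von Ebner's gland protein gene that lies beside Lcn1 in the reference gene table, was also measured by a probe set of its own. That probe set was 4.49 ± 0.19 higher in stage 4 than in stage 3. This is given as a description, because Lcn1 was chosen for its late rise and Vegp2 is not independent of it. How far the probe set of either gene also measured the mRNA of the other was not tested.

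**Figure D2:**
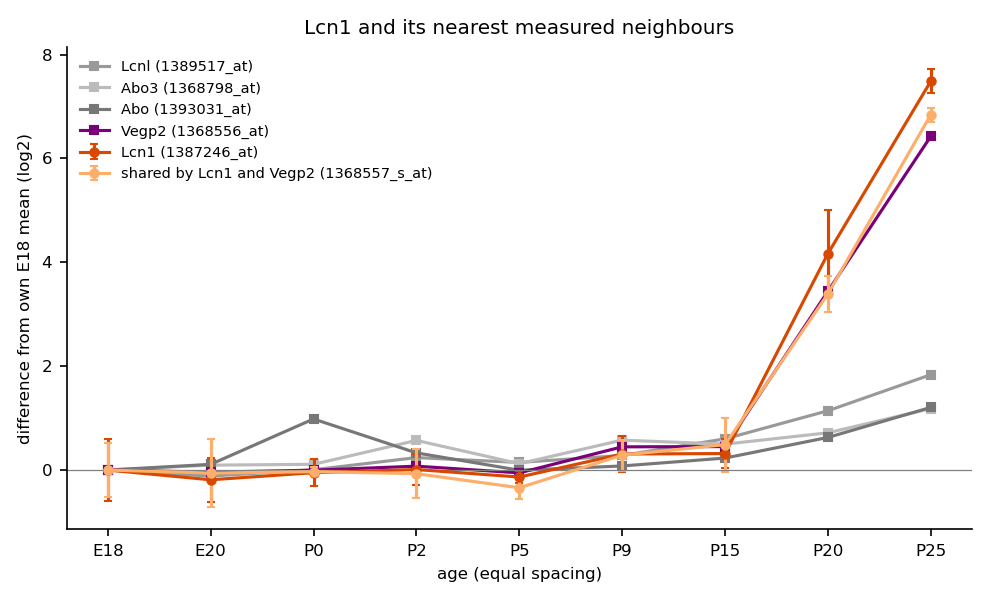
Difference of each age mean from the E18 mean of the same probe set, in log2 units, for Lcn1, Vegp2, their shared probe set and the other 3 nearest measured genes (Lcnl, Abo3, Abo). Bars are the SD of 3 arrays, drawn for the Lcn1 and shared probe sets only. Lcn1, Vegp2 and the shared probe set part from the other 3 genes at P20.

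Obp2b, the other lipocalin, rose in steps from P9 on. Up to P5 its 15 arrays lay between 2.76 and 4.89 with a median of 4.06. It measured 7.27, 5.09 and 5.45 at P9, 7.16, 6.94 and 6.78 at P15, 9.19, 9.49 and 10.23 at P20, and 7.45, 7.48 and 10.08 at P25. P9 lay wholly above P5 and P20 wholly above P15, while P9 overlapped P15 and P25 overlapped P20.

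The mean of Obp2b was highest at P20, and its difference from P20 to P25 was -1.30 ± 0.58. At P25, replicate 3 stood 2.60 above the next array. The difference from E18 to P25 was 4.93 ± 0.58 with all arrays and 4.05 without P25 replicate 3. That array also had the highest skeletal muscle marker level of its age, 9.39 against 5.78 and 6.26. The same held for the markers of duct, epidermis and hair follicle, mast cells and other salivary glands. Its acinar marker level was the lowest of its age, 10.78. At P9 and P20, the array with the highest Obp2b value had the lowest muscle marker level of its age, 9.32 and 7.06. That P9 array had the highest level of its age for duct (7.15), epidermis and hair follicle (8.54) and other salivary glands (8.73). Its mast cell level was the lowest (4.85). That P20 array had the lowest level of its age on each of these lists, and the highest acinar level (11.05). The part of these levels in the Obp2b value was not tested. The midpoint of the rise came 12.45 days after birth, but with a spread of 4.42 days, so that its place beside Cst5 and Dmbt1 in the order of onset was not resolved.

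Cst5 and Dmbt1 shared a course with a variable early phase and a steep rise between P9 and P20. Cst5 ranged from 2.24 to 5.16 with a median of 2.72 in stage 1, and on 5 of the 27 arrays, all of P2 or earlier, it lay below the 5th percentile of probe sets. It measured 6.47, 7.47 and 2.58 at P2, 8.07, 7.37 and 4.55 at P5, and 6.15, 3.99 and 6.66 at P9. These ages overlapped one another, and P2 overlapped stage 1 through replicate 3. P5 and P9 also overlapped stage 1, through its highest value of 5.16 on E18 replicate 2.

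Cst5 then measured 7.73, 11.52 and 11.18 at P15, 13.25, 13.010 and 13.003 at P20, and 13.60, 13.54 and 13.19 at P25. P15 lay above P9 and P20 above P15, whereas P20 and P25 overlapped. The step from P9 to P15 was 4.54 ± 1.12 (23.3-fold), that from P15 to P20 was 2.94 ± 1.12 (7.70-fold), and the whole difference from E18 was 10.20 ± 1.12. The midpoint of the change was passed 12.63 days after birth, with a spread of 1.96 days.

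Dmbt1 ranged from 3.31 to 6.49 with a median of 3.86 in stage 1, the highest value being that of P0 replicate 3. It measured 7.97, 4.87 and 3.63 at P2, 6.03, 6.83 and 3.54 at P5, and 5.06, 4.51 and 4.29 at P9. Single arrays were high at P2 and P5, but none of these ages lay apart from stage 1 as a whole. At P15 Dmbt1 reached 11.23, 10.63 and 8.75, at P20 12.91, 12.61 and 12.89, and at P25 12.91, 12.18 and 12.24. The step from P9 to P15 was free of overlap and amounted to 5.59 ± 0.91 (48.0-fold), followed by 2.60 ± 0.91 (6.05-fold) to P20. The arrays of P20 and P25 overlapped, with a mean difference of -0.36 ± 0.91. The midpoint came 12.94 days after birth, with a spread of 1.28 days, 0.31 days after that of Cst5 and well within both spreads.

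**Figure D3:**
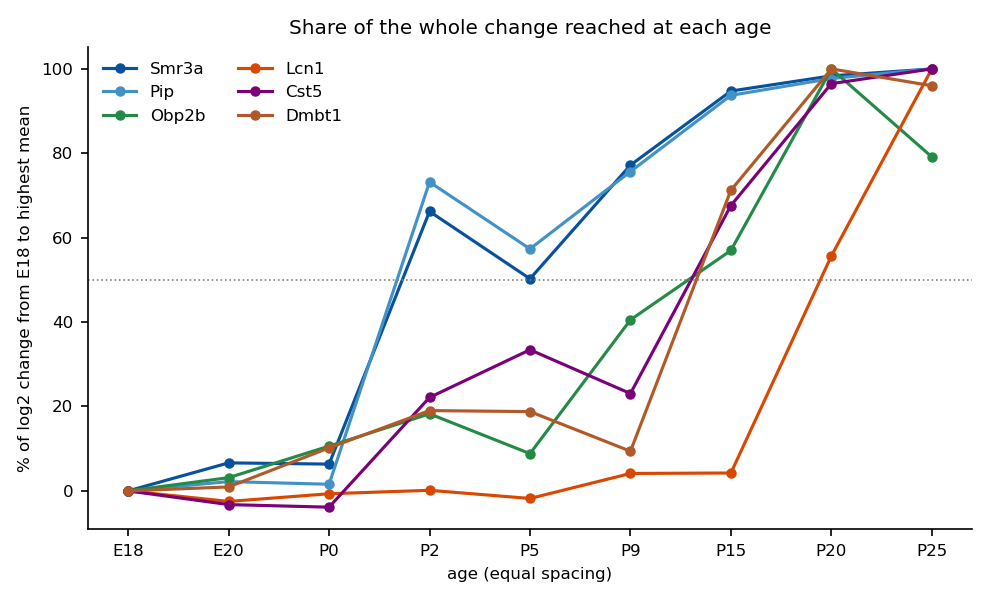
Percent of the log2 change from the E18 mean to the highest age mean that each of the 6 genes had reached at each age (equal spacing of ages), with 50% as a dotted line. At P9, Smr3a and Pip stood at 77.2% and 75.7%, Obp2b at 40.5%, Cst5 at 23.1%, Dmbt1 at 9.40% and Lcn1 at 4.13%.

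By the midpoint of the rise the order was Pip, Smr3a, Obp2b, Cst5, Dmbt1 and Lcn1. Pip and Smr3a did not differ beyond their spread, nor did Obp2b, Cst5 and Dmbt1. Lcn1 came 6.51 days after Dmbt1. Between P15 and P20 all 6 genes rose without overlap, as did 9.88% of probe sets; between P9 and P15 this held for 4 genes, Smr3a, Pip, Cst5 and Dmbt1, beside 6.34% of probe sets; and between P5 and P9 for 3 genes, Smr3a, Pip and Obp2b, beside 14.6%. All 6 were higher at P25 than at E18 without overlap, as were 27.7% of probe sets. These contrasts were used in choosing the genes, and the counts are given as a description.

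By stage, the change from stage 1 to stage 2 was 5.63 ± 0.28 for Smr3a and 5.89 ± 0.34 for Pip, against 3.08 ± 0.72 for Cst5, 1.37 ± 0.58 for Dmbt1, 0.56 ± 0.38 for Obp2b and 0.02 ± 0.23 for Lcn1. From stage 3 to stage 4 the change was 5.52 ± 0.25 for Lcn1, 5.39 ± 0.79 for Cst5, 5.21 ± 0.64 for Dmbt1 and 2.54 ± 0.41 for Obp2b, against 1.38 ± 0.31 for Smr3a and 1.30 ± 0.37 for Pip. Smr3a and Pip had the 2 largest means in the first span and the 2 smallest in the last, while Cst5, Dmbt1 and Obp2b kept their order. Stage 3 averages P9 with P15, between which Cst5 rose by 4.54 and Dmbt1 by 5.59. From P15 to P20 Cst5 rose by 2.94, Dmbt1 by 2.60 and Lcn1 by 3.85.

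Cst5 and Dmbt1 had the widest spread among the arrays of an age at P2, P5 and P15. For Cst5 the highest array exceeded the lowest by 4.89 at P2, 3.52 at P5 and 3.79 at P15, and for Dmbt1 by 4.34, 3.30 and 2.48. At P9 the range was 2.67 for Cst5, 2.18 for Obp2b and 0.77 for Dmbt1. At P20 Cst5 and Dmbt1 had ranges of at most 0.30. Replicate 3 was the lowest array for Pip, Cst5 and Dmbt1 alike at P2 and again at P5. The labels state no pairing of replicate numbers across ages, though some same-numbered arrays were more alike than other-numbered ones. At P15 the lowest array was replicate 1 for Cst5 and replicate 3 for Dmbt1. Smr3a did not follow this pattern, with replicate 1 lowest at P2 and replicate 2 at P5.

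Marker levels differed between the same arrays. A list of genes typical of other salivary glands, 6 of 12 measured, which includes the mucin-like Smgc, had a mean level of 8.58 on P2 replicate 1, where Pip and Dmbt1 had their highest P2 values, against 4.88 and 4.85 on the other 2 P2 arrays. At P5 it was highest on replicate 2 (7.34, against 5.28 and 6.76), the array with the highest P5 value of both genes. Cst5 did not follow this list, since its highest arrays were replicate 2 at P2 and replicate 1 at P5, and Smr3a was lowest on the arrays where the list was highest. At P15, where Cst5 and Dmbt1 also spread widely, it lay between 4.27 and 5.14. The mean level of 8 macrophage markers was 5.83, 5.83 and 6.11 on the P2 arrays, 6.08, 5.99 and 6.82 on the P5 arrays and 6.14, 5.87 and 5.83 on the P15 arrays. It was highest on replicate 3 at P2 and P5, where Pip, Cst5 and Dmbt1 were lowest, and on replicate 1 at P15, where Cst5 and Pip were lowest. Dmbt1 went the other way at P15, being highest on replicate 1, at 11.23 against 10.63 and 8.75. These are 2 of 15 marker lists, all of which were compared with the 6 genes before these were picked. The macrophage mean differed less between the arrays of these ages than Cst5 and Dmbt1 did. A mean of 8 genes and the value of a single gene are unlike measures. The part of these levels in the spread was not tested.

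**Figure D4:**
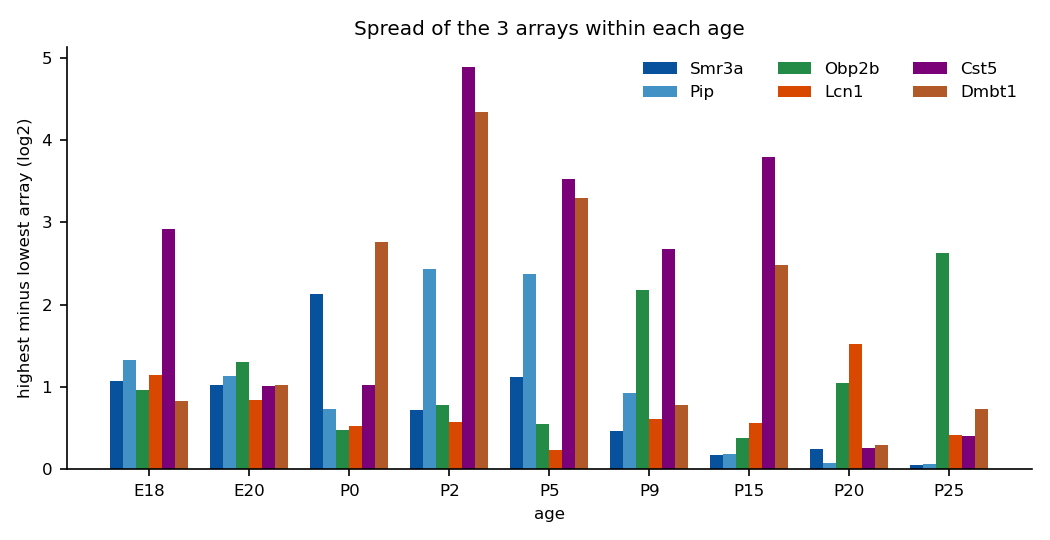
Highest minus lowest of the 3 arrays at each age, in log2 units, for each of the 6 genes (bars). Cst5 and Dmbt1 have the widest bars at P2, P5 and P15 and fall to 0.25 and 0.30 at P20.

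The 9 age means of the 6 genes were set beside those of 2324 probe sets of other genes that changed over the ages and spanned at least 2 log2 units. Correlations are across 9 age means that share the same arrays, and are a description. For both Smr3a and Pip the most similar genes were Prpmp5, a proline-rich protein (r = 0.996 with each), Lpo, the lactoperoxidase of saliva (r = 0.992 and 0.986), and Azgp1, a secreted zinc-binding glycoprotein (r = 0.990 and 0.982). Tmc4 and Nptxr completed the 5 for Smr3a, and Ckmt1 and Nptxr those for Pip.

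Lcn1 was closest to Vegp2 (r = 0.999), and how far their probe sets measured the same mRNA was not tested. Next came the proline-rich protein gene Prb1 (r = 0.995), Iqca1, the pancreatic-type amylase gene Amy2a3 (r = 0.989) and Ttpa, the tocopherol transfer protein. Prb1 had means of 4.20 at P15, 8.16 at P20 and 10.27 at P25. Dmbt1 was closest to Ufl1 (r = 0.988), to Pigr (r = 0.988), the receptor that carries IgA across epithelia, and to Galnt3 (r = 0.987), an enzyme that starts O-linked glycans, with Chia and Slc35c1 next. Pigr had means of 3.96 at E18, 9.39 at P15, 12.26 at P20 and 12.59 at P25. Cst5 was closest to Slc22a3 (r = 0.991), an organic cation transporter, then to Serp1, a protein of the endoplasmic reticulum translocation site, Adtrp, Pm20d2 and S1pr5.

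Obp2b was closest to genes that were also highest at P20, namely Klf15 (r = 0.994), a transcription factor, Qsox1 (r = 0.987), a secreted sulfhydryl oxidase, Slc7a4, Blcap and Sval2. Klf15 had means of 7.41 at P15, 8.66 at P20 and 7.97 at P25. Sval2 lies next to Pip in the reference gene table, but had a course closer to Obp2b.

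Genes next to the 6 on the chromosome were read from the RefSeq gene table of GRCr8. Of the 24 nearest measured genes, 2 on each side of each of the 6, 8 changed over the 9 ages by the moderated F test (33.3%), beside 24.5% of all probe sets. Vegp2 was among the 8, and it is not independent of Lcn1, which was chosen for its late rise. The others were Trpv5, Kel and Sval2 near Pip, Bmyc and Kcnt1 near Obp2b, and Htra1 and Cuzd1 near Dmbt1. Between stages 3 and 4, Trpv5, a calcium channel, rose by 1.65 ± 0.27 (limma adjusted p = 0.000449; 0.95 and still called as the mean of its probe sets) and Bmyc, a Myc family gene, by 1.14 ± 0.26 (adjusted p = 0.00817, and 0.0594 with marker levels as covariates). Htra1, a secreted serine protease, rose by 2.06 ± 0.40 from stage 1 to stage 2 (adjusted p = 0.00441, and 0.113 with those covariates). Smr3b, a homologue of Smr3a and one of its neighbours, had age means from 2.52 to 8.54 with its highest mean at P9 and did not pass the F test (adjusted p = 0.0867). The neighbours of Cst5, including the cystatin genes Cyss and Cyssl1, did not pass it either.

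Lists of related genes, 5 in all, placed the 6 among other products of the gland and other members of their families. Of 120 genes listed, 80 were measured. The lists were chosen with earlier results of these data known, so an excess over all probe sets may in part come from that choice. Each gene was counted by its probe set of highest mean, whereas all probe sets include those without a gene symbol. Most genes named from the lists were picked for passing the F test with the largest ranges, so their adjusted p-values are those of picked genes. Of these 80, 37 changed over the 9 ages by the F test (46.3%, beside 24.5% of all probe sets). From stage 1 to stage 2, 12 rose and 1 fell, with a median difference of 0.29 beside -0.01 over all probe sets, where 1.63% rose and 1.33% fell. From stage 2 to stage 3, 6 rose and 2 fell (0.280% and 0.480% of all probe sets), and from stage 3 to stage 4, 11 rose and 2 fell (4.09% and 4.27%). The medians of these spans were 0.13 beside 0.07 and 0.20 beside 0.09. The genes called lower were Ptgds in the first span, Rbp4 and Bpifa1 in the second, and Bpifa1 and Smgc in the third. Bpifa1, a secreted protein related to Bpifa2, was named after its values were seen. The drop of Smgc lay within stage 3, whose mean joins P9 with P15. Its means were 13.26 at P9, 3.24 at P15, 4.95 at P20 and 3.86 at P25. With marker levels as covariates the falls of Rbp4 (adjusted p = 0.273) and Smgc (adjusted p = 0.0769) were not called, and 1 gene in place of 6 rose from stage 2 to stage 3. The limma call for Smgc in stage 4 against stage 3 was also lost without P20 replicate 2 (adjusted p = 0.0523) or without P20 replicate 3 (adjusted p = 0.0521).

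The late change, stage 4 minus stage 3, was also tested against the early change, stage 2 minus stage 1. It was larger than the early change in 8 of the 80 genes and smaller in 8, beside 1.34% and 2.05% of all probe sets, with a median of -0.16 beside 0.11. For the 6 genes themselves the same difference is a description, at -4.25 ± 0.41 for Smr3a, -4.59 ± 0.51 for Pip, 1.98 ± 0.56 for Obp2b, 5.50 ± 0.34 for Lcn1, 2.32 ± 1.07 for Cst5 and 3.84 ± 0.87 for Dmbt1. For Cst5 and Dmbt1 the stage 3 mean joins a low P9 with a high P15.

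The list of 26 other saliva proteins that are not enzymes had 20 genes that changed over the ages. For 6 of the 26 the late change was the larger, and for 5 the early change. The 6 included Pigr and Jchain, the joining chain of IgA that plasma cells make. A list of lymphocyte and plasma cell markers, 10 of 12 measured, included Jchain. Its mean level was 4.79 to 5.27 on the P15 arrays and 6.10 to 6.56 on the P20 arrays. Within the list, Jchain had means of 5.90 at P15 and 10.53 at P20, Mzb1 of 7.33 and 10.85, and Pou2af1 of 3.25 and 6.32. The other genes of the list changed less, among them the B cell marker Ms4a1, with means of 2.46 and 2.73. The part of lymphocytes and plasma cells in the late changes was not tested. The basic proline-rich protein gene Prb3 was on the late side, by 6.34 ± 0.31 (limma adjusted p = 1.34e-11), with means of 7.57 at P15 and 13.70 at P20. On the early side were Bpifa2, the parotid secretory protein, by -5.67 ± 0.32 (adjusted p = 1.67e-10), and Prpmp5, the gene most like Smr3a, by -4.52 ± 0.84 (adjusted p = 0.00318). The call for Prpmp5 was lost when muscle, epidermis and cartilage marker levels were covariates (adjusted p = 0.142). Smgc, whose mean was 13.26 at P9 and 3.24 at P15, differed by -11.14 ± 1.35 (adjusted p = 3.34e-05). Bpifb1 and Ccl28, named after their values were seen, made up the 5.

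Among 12 salivary enzymes, 6 changed over the ages, and the late change was the larger in 2, Dnase1, a deoxyribonuclease, and Chia, an acidic chitinase. Dnase1 differed by 8.51 ± 0.37 (limma adjusted p = 2.51e-12) and Chia by 6.40 ± 0.33 (adjusted p = 3.04e-11). Lpo was on the early side by -2.83 ± 0.61 (adjusted p = 0.0109). Car6, a secreted carbonic anhydrase, rose in both spans, by 3.52 ± 0.77 and 3.27 ± 0.85, and its late and early changes differed by -0.26 ± 1.15 (adjusted p = 0.933). The early rise of Car6 was not called without the 4 arrays richest in muscle, epidermis or cartilage markers (adjusted p = 0.0740), with marker levels as covariates (0.139) or with only the ages compared in the fit (0.0693). Without P2 replicate 1 it was 2.32 and still called.

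**Figure D5:**
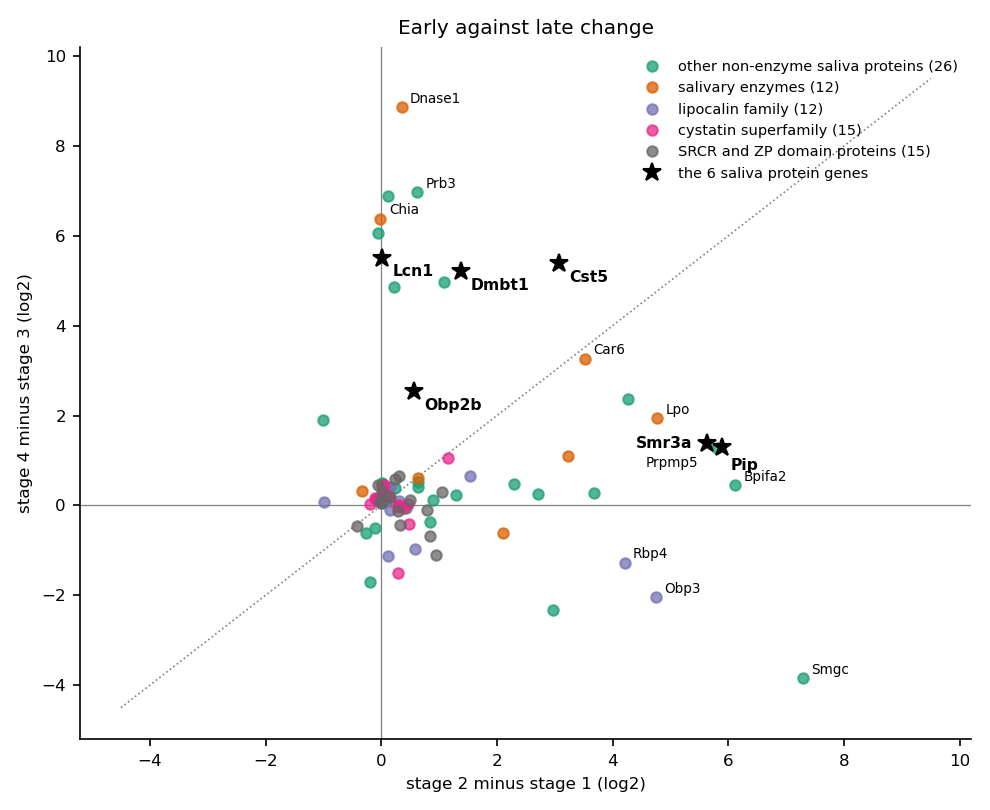
Change from stage 1 to stage 2 (x axis) against change from stage 3 to stage 4 (y axis), in log2 units, for the 80 related genes (circles, coloured by list, number of genes in parentheses) and the 6 saliva protein genes (stars); the dotted line marks equal change. Smr3a and Pip lie by Prpmp5 on the right, Lcn1 and Dmbt1 at the upper left below Prb3, Chia and Dnase1.

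The list of 12 other lipocalin family genes does not hold Vegp2, whose late rise is given above. Of the 12, 4 changed over the ages (33.3%, beside 24.5% of all probe sets), and 0 were called higher in stage 4 than in stage 3 by limma (4.09% of all probe sets), with 1 at an unadjusted p under 0.05. These 2 shares are near those of all probe sets. From stage 1 to stage 2, however, 3 of the 12 rose (25.0%, beside 1.63% of all probe sets). In the late against the early change, 2 were on the early side (16.7%, beside 2.05%). Obp3, a urinary and odorant-binding lipocalin, rose by 4.75 ± 0.89 from stage 1 to stage 2 (limma adjusted p = 0.00336), and Rbp4, the retinol carrier of plasma, by 4.21 ± 0.42 (adjusted p = 2.97e-06). Both were on the early side of the test of late against early change, Obp3 by -6.79 ± 1.31 (adjusted p = 0.00466) and Rbp4 by -5.48 ± 0.63 (adjusted p = 1.58e-05). With marker levels as covariates neither call for Obp3 held, with an adjusted p of 0.111 for the early rise and 0.106 for late against early change. Adipocyte markers were not among those covariates. The mean level of 7 of them was 5.47 at P0, 7.32 at P2, 8.03 at P5, 6.66 at P9, 5.86 at P15 and 5.24 at P20. This list was named after its values were seen, and its part in the courses of Rbp4 and Obp3 was not tested. Ptgds, a prostaglandin synthase of the lipocalin fold, was the 1 related gene called lower in stage 2 than in stage 1 (-0.98 ± 0.27, adjusted p = 0.0462), and that call was lost when any of 21 of the 27 arrays was left out.

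None of 15 other cystatin superfamily genes and none of 15 genes with scavenger receptor cysteine-rich or zona pellucida domains passed any of the 4 stage tests by limma, where 0.280% to 4.27% of all probe sets were called in either direction. At an unadjusted p under 0.05, 2 cystatin genes were higher and 0 lower in stage 2 than in stage 1, 2 and 2 in stage 3 against stage 2, 1 and 0 in stage 4 against stage 3, and 0 and 0 in the late against the early change. The same counts for the list with Dmbt1's domains were 3 and 0, 3 and 1, 3 and 0, and 0 and 2. Over the 9 ages, 3 cystatin genes passed the F test, Andpro, Cst12 and Ahsg, with age means that spanned 1.60, 1.53 and 0.82. In the other list 4 passed it, Cuzd1, Ssc4d, Tgfbr3 and Umod, spanning 2.07, 1.98, 1.68 and 0.92. These are 20.0% and 26.7% of the lists, near the 24.5% of all probe sets.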

How the data were processed

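Expression was measured in laser-captured parotid acini of rats on Affymetrix whole-genome rat arrays. The authors corrected background, normalized and summarised the arrays by RMA, and the deposited values are log2 expression of 31099 probe sets; the version of the RMA software is not given in the sources used here. Labels name a PicoPure kit and amplification from 1.5 or 4.5 ng of RNA, without saying which array had which, while the study's methods name another extraction kit. The number of arrays limits the precision.

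After 57 array controls were left out, 31042 probe sets were fitted in R 4.3.3 by limma 3.58.1, each age having 1 coefficient, with 18 residual degrees of freedom and empirical Bayes moderation. Contrasts of stages and a moderated F test over the ages were adjusted by Benjamini-Hochberg over all probe sets, with calls at 0.05; the fitting step was also run on simulated data. No filter on dim probe sets was applied. GEO's platform annotation gave 1 symbol to 20826 probe sets, several to 436 and none to 9780; 20758 of the first matched the reference gene table. A gene was counted by its probe set of highest mean. Named genes were all 6 members, up to 4 genes per related list that passed the F test with the largest range of age means, the 5 genes most correlated with each member and the nearest 2 measured genes on each side. Members, gene lists and markers were chosen with earlier results of these data known. The half-rise age was the day (birth at day 22) at which the line between adjacent age means first crossed the midpoint between the E18 mean and the highest mean; its spread is the residual SD divided by the slope there. Alternatives were median centring, quantile normalization, a replicate block, marker covariates, array weights, an intensity trend, a filter at a mean of 5, gene means, fewer arrays or ages, a plain analysis of variance, other definitions of onset and leaving out each array. No array was a copy of another: arrays of the same age correlated at 0.873 to 0.962.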

Additional observations from a re-analysis of the deposited data

How the results depend on the processing

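No result changed direction under any alternative. Of 158 values recomputed under other settings, 145 stayed the same within the spread or within 1.5 times, and 13 moved. When the onset was the first age with every array above E18, it moved to day 24 after conception for Smr3a and Pip, 31 for Dmbt1 and 37 for Cst5. Dmbt1 then came before Cst5, whereas by the midpoint it came after Cst5, within both spreads. Without 1 array, the Obp2b difference from E18 to P25 ranged from 4.05 to 5.37. Among related genes, those lower in stage 2 than stage 1 were 0 with the replicate block, without 4 marker-rich arrays, with only the ages compared or with probe sets of mean at least 5, 2 with array weights, and 0 to 1 without 1 array. Those higher in stage 3 than stage 2 were 1 with marker covariates and 11 with array weights, and those lower 1 with covariates. Those lower in stage 4 than stage 3 were 1 with covariates and 1 to 3 without 1 array, Smgc being lost without P20 replicate 2 or 3. The replicate block changed no other count by over 1.5 times. Same-numbered arrays of different ages had deviations that correlated at -0.11 to 0.46 (median 0.01), with 11 of 108 pairs over 0.1. Other-numbered arrays gave -0.28 to 0.14 (median -0.01), with 8 of 216 pairs over 0.1. Some same-numbered arrays were thus more alike. The labels state no pairing, and the main fit used none.

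Over all probe sets, marker covariates gave the fewest calls and array weights the most for most tests: 141 and 875 rose from stage 1 to 2 (507 as reported) and 157 and 791 fell (413); 6 and 495 rose from stage 2 to 3 (87) and 2 and 662 fell (149); the late change was larger in 127 and 765 (417) and smaller in 172 and 907 (637). From stage 3 to 4, 649 rose and 682 fell with only those ages fitted (1269 and 1325). The F test gave 3767 with covariates (7611). Median centring raised the median late against early change of all probe sets by 0.10, from 0.11 to 0.21, and moved the stage contrasts by at most 0.06. From P15 on Smr3a and Pip lay near the highest value of the table; whether differences are compressed there was not tested.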
